A study of Mus musculus with 12 samples.

Results

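The 8 B cell genes described here are Cd79a, Cd79b, Ighd, Cr2, Cd22, Ms4a1, Fcer2a and Pax5. They were chosen by name and are 8 of the 23127 genes in the table of whole-lung RNA sequencing values, and all 8 passed the filter on low values. The study set lungs of C57BL6/J mice at 0 weeks (the untreated controls) beside lungs of mice that had received L-NAME and a high-fat diet together for 2 or for 5 weeks, with 4 mice in each of the 3 groups. L-NAME, an inhibitor of nitric oxide synthase, was given at 0.5 g/L in drinking water, and the diet held 60% lipid. The treatment models heart failure with preserved ejection fraction, in which the lung vessels remodel. All controls were 0-week mice, so time on study and treatment cannot be told apart, and L-NAME cannot be told apart from the diet. Each library is a mouse numbered in the labels, and a replicate number only names it. The labels give no age or sex.

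B cells recognise antigen through a surface immunoglobulin, IgM or IgD, whose signal is carried into the cell by the CD79A and CD79B proteins. Coreceptors set the strength of that signal: CD21 raises it, and CD22 lowers it. Resting mature follicular B cells carry IgD, CD21, CD23 and CD20 together, whereas plasma cells lose most of these molecules and secrete antibody. In the lung of an unchallenged mouse B cells are found mostly in the blood of the vessels, and after inflammation they can gather in follicles beside airways and vessels.

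Values are in CPM, the reads of a gene scaled to a fixed library total, as deposited by the authors. The step between neighbouring low values puts the depth at 26000000 to 34100000 gene-assigned reads per library. Surfactant and airway genes marked every library as lung, with Sftpc, Sftpb, Ager, Scgb1a1, Cldn5 and Foxj1 summing to between 36121 and 50296 CPM. All 8 B cell genes were above 3 CPM in every library. In whole tissue, a change in the number of B cells and a change in RNA per B cell cannot be told apart. Differences below are in log2(CPM + 1) from limma fitted over all 12 libraries and the 15562 genes that averaged 1 CPM or more, with two-sided p-values adjusted over all of them by the Benjamini-Hochberg method (threshold 0.05). No gene passed in any of the 3 comparisons or in the F-test over the 3 groups, so percent called was 0 throughout. At an unadjusted p under 0.05, 1343 genes (8.63%) stood out at 5 against 0 weeks, 1438 (9.24%) at 2 against 0 weeks and 1696 (10.9%) at 5 against 2 weeks.

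Promoters are shown for the 3 members in which 5-week and control libraries did not overlap and which have an entry in the RefSeq promoter table. That table held 5 of the 8 genes (Cd79a, Cd22, Fcer2a, Pax5 and Cr2) on GRCm38.p6. The 250 bases before the start are printed 5′ to 3′ on the gene's strand, with motif matches in capitals. For Fcer2a, which has 3 starts in the table, the one farthest upstream is given.
Cd79a, chr7:24897247-24897496, plus strand: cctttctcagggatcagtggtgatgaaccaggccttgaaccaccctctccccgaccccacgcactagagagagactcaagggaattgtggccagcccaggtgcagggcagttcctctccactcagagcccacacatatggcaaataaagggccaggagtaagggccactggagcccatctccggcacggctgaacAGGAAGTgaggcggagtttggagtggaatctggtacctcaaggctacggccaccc
Cd22, chr7:30879029-30879278, minus strand: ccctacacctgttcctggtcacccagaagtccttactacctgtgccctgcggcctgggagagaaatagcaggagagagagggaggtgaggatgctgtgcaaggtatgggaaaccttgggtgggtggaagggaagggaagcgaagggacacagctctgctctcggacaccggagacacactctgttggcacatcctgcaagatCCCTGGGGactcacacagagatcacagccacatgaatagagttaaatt
Fcer2a, chr8:3694175-3694424, minus strand: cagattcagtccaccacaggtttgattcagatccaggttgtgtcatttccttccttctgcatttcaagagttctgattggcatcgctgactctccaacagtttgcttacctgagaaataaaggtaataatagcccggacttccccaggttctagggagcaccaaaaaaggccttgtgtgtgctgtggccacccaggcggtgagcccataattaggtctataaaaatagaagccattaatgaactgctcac

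Both strands of these windows were searched for 3 motifs of factors that act in B cells. The ETS motif AGGAAGT was found in the Cd79a window, starting 55 bases before the start, and is present in 7.69% of the 32851 windows of the same length in the table. The EBF motif CCCNNGGG was found in the Cd22 window, starting 48 bases before the start, and is present in 11.8% of all windows. The octamer motif ATGCAAAT, present in 1.60% of all windows, matched in none of the 7 windows of the 5 genes, and the windows of Fcer2a, Pax5 and Cr2 held no match to any of the 3 motifs. A match describes the letters of these windows and was not tested for binding. Only these exact letters were searched, so a window without a match can still hold a variant site of the same factor.

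Per kilobase of merged exon, the members spanned a wide range of levels. Cd79a stood at 33.8 ± 17.7 CPM per kb over the 12 libraries (mean level, SD), Cd79b at 26.04 ± 14.9 and Ighd at 21.6 ± 9.73. Fcer2a had a level of 4.50 ± 2.20 CPM per kb, Cd22 of 4.13 ± 1.57 and Ms4a1 of 4.01 ± 2.21. Pax5, at 1.86 ± 0.579 CPM per kb, and Cr2, at 0.766 ± 0.346 CPM per kb, were lowest. Mean levels of neighbours within the receptor genes, and within Fcer2a, Cd22 and Ms4a1, differed by less than the SD of each over libraries. That SD is not the spread of their difference, because the members varied together. Cd79b was 0.631 to 0.863 of Cd79a in CPM over the 12 libraries, with exons of 1.431 and 1.457 kb. Exon lengths come from GENCODE M21 on GRCm38 and need not be those of the authors' counting.

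All 3 antigen receptor genes averaged higher at 5 weeks. Cd79a (ENSMUSG00000003379, chromosome 7, 24596806 to 24601622 by the coordinates of the deposited table, whose build is not named there, as for all positions of members given here), which encodes the signalling chain Igα, had 40.8, 42.7, 28.2 and 27.1 CPM in the 4 controls, 30.7, 36.1, 33.2 and 64.0 CPM after 2 weeks, and 59.1, 51.3, 120.5 and 57.2 CPM after 5 weeks. Every 5-week library lay above every control, and among the treated lungs 2-week replicate 4 reached into the 5-week range. The 5-week mean of 72.02 ± 32.5 CPM was 2.08 times the control mean of 34.7 ± 8.20 CPM (SD, n = 4 each), a log2 difference of 0.97 ± 0.28 (SE) with a limma adjusted p of 0.509.

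Cd79b (ENSMUSG00000040592, chromosome 11, 106202167 to 106205588), which encodes the partner chain Igβ, had 27.5, 36.8, 22.4 and 20.3 CPM in the controls, 25.3, 25.4, 28.3 and 48.4 CPM after 2 weeks, and 38.7, 38.2, 99.7 and 36.1 CPM after 5 weeks. Control replicate 2 reached the lowest 5-week library, so these groups overlapped. The 5-week mean was 53.2 ± 31.02 CPM and the control mean 26.8 ± 7.37 CPM (SD, n = 4 each), with a log2 difference of 0.86 ± 0.31 (SE, limma adjusted p = 0.543). Across all 12 libraries the ratio of Cd79b to Cd79a in CPM stayed between 0.631 and 0.863.

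Ighd (ENSMUSG00000104213, chromosome 12, 113370224 to 113379944, an immunoglobulin constant gene), the heavy chain of IgD on mature naive B cells, had 40.5, 30.3, 27.1 and 24.3 CPM in the controls, 28.0, 31.1, 29.7 and 52.9 CPM after 2 weeks, and 47.8, 42.2, 91.4 and 48.1 CPM after 5 weeks. The 5-week libraries again lay above all controls, by a small margin over control replicate 1. The means were 57.4 ± 22.8 CPM at 5 weeks and 30.5 ± 7.06 CPM in controls (SD, n = 4 each), 1.88 times apart, with a log2 difference of 0.84 ± 0.25 (SE, limma adjusted p = 0.513). Ighd lies beside Ighm and is spliced from the same primary transcript, and the counting is not stated to use strand.

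**Figure D1:**
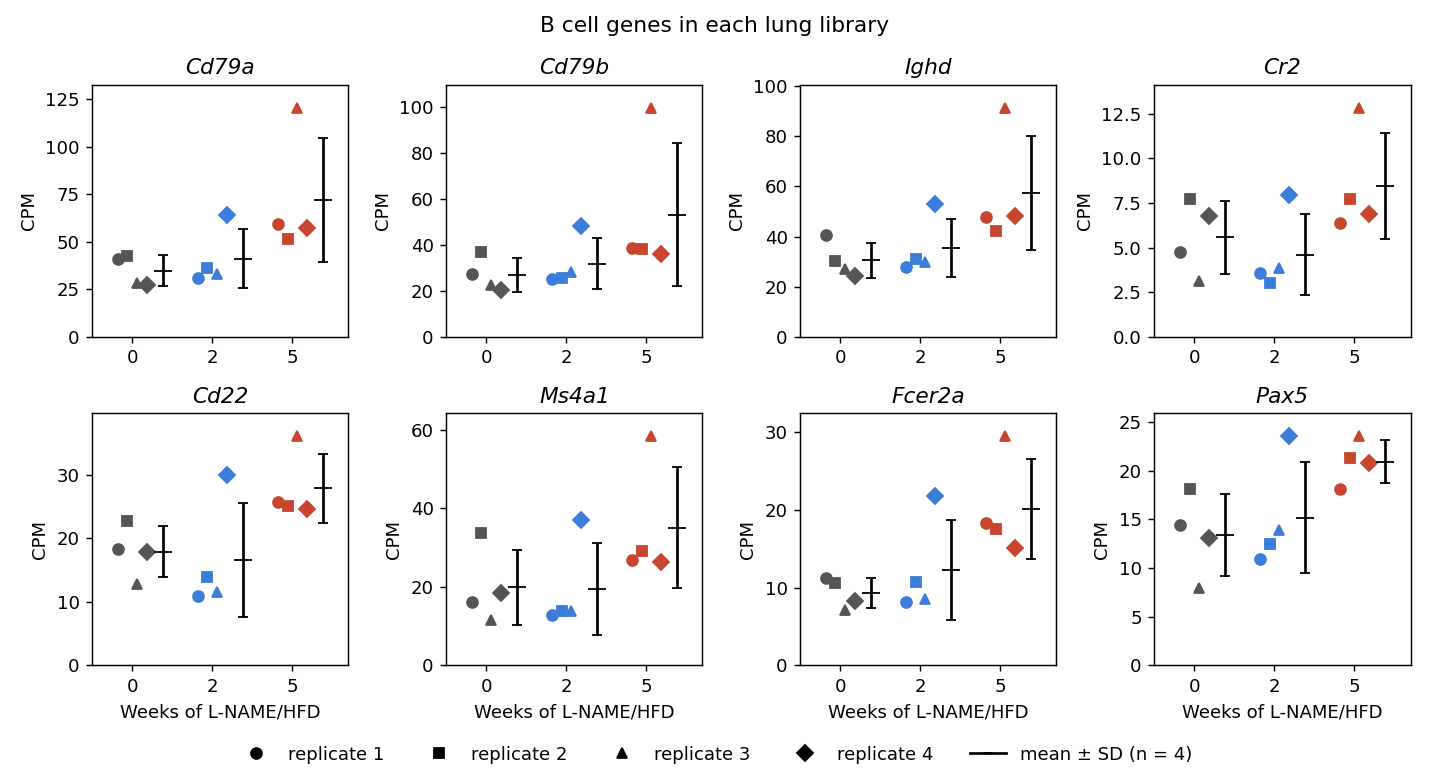
CPM of the 8 B cell genes in each of 12 lung libraries (y axis, linear, from 0) by weeks of treatment (x axis), with 1 symbol per replicate number and bars for mean ± SD (n = 4). In 7 of the 8 panels 5-week replicate 3 is highest, and 2-week replicate 4 is among the 2 highest libraries in all 8.

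Among the coreceptors, Cr2 was the least abundant. Cr2 (ENSMUSG00000026616, chromosome 1, 194819119 to 194859024), which in the mouse encodes both complement receptors CD21 and CD35, had 4.75, 7.69, 3.10 and 6.75 CPM in the controls, 3.58, 3.03, 3.84 and 7.97 CPM after 2 weeks, and 6.38, 7.72, 12.8 and 6.88 CPM after 5 weeks. Control replicates 2 and 4 lay within the range of the 5-week libraries. The 5-week mean was 8.45 ± 2.97 CPM and the control mean 5.57 ± 2.06 CPM (SD, n = 4 each), with a log2 difference of 0.54 ± 0.29 (SE, limma adjusted p = 0.63), the smallest of the 8 at 5 weeks. Follicular dendritic cells also carry this receptor. The 5 listed lymph node and follicular dendritic cell markers with values summed to 81.6 to 98.0 CPM at 5 weeks. They summed to 67.9 to 90.2 CPM at 2 weeks and 73.0 to 111 CPM in controls. Of these, Cxcl13 was between 2.04 and 3.15 CPM in 5-week lungs and 0.944 to 35.5 CPM in controls. Glycam1, a product of lymph node vessels, was at the table's floor of 0.0001 CPM in all 8 treated libraries and in every control but replicate 2. Whether follicular dendritic cells contribute to Cr2 was not tested.

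Cd22 (ENSMUSG00000030577, chromosome 7, 30564827 to 30579767), a sialic acid-binding receptor that restrains antigen receptor signals, had 18.4, 22.7, 12.8 and 17.9 CPM in the controls, 10.96, 13.9, 11.5 and 30.05 CPM after 2 weeks, and 25.7, 25.1, 36.1 and 24.6 CPM after 5 weeks. Every 5-week library exceeded every control, and 3 of the 4 2-week libraries were below the control mean. The means were 27.9 ± 5.50 CPM at 5 weeks and 17.9 ± 4.05 CPM in controls (SD, n = 4 each), with a log2 difference of 0.62 ± 0.26 (SE, limma adjusted p = 0.557).

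Ms4a1 (ENSMUSG00000024673, chromosome 19, 11227039 to 11243605) encodes CD20, the membrane protein targeted by B cell-depleting antibodies. It had 16.2, 33.6, 11.4 and 18.5 CPM in the controls, 12.8, 13.8, 13.9 and 36.9 CPM after 2 weeks, and 26.7, 29.1, 58.3 and 26.2 CPM after 5 weeks. Control replicate 2 exceeded 3 of the 5-week libraries, so the groups overlapped. The 5-week mean was 35.1 ± 15.5 CPM and the control mean 19.9 ± 9.58 CPM (SD, n = 4 each), with a log2 difference of 0.81 ± 0.37 (SE, limma adjusted p = 0.575).

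Fcer2a had the largest log2 difference of the 8 at 5 weeks. This gene (ENSMUSG00000005540, chromosome 8, 3731737 to 3744175) encodes CD23, the low-affinity IgE receptor of follicular B cells. It had 11.3, 10.6, 7.14 and 8.30 CPM in the controls, 8.13, 10.7, 8.54 and 21.8 CPM after 2 weeks, and 18.4, 17.5, 29.5 and 15.1 CPM after 5 weeks. The 5-week and control libraries did not overlap. The means were 20.1 ± 6.40 CPM at 5 weeks and 9.32 ± 1.93 CPM in controls (SD, n = 4 each), 2.16 times apart, with a log2 difference of 1.01 ± 0.27 (SE, limma adjusted p = 0.463).

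Pax5 (ENSMUSG00000014030, chromosome 4, 44524757 to 44710487), the transcription factor that holds cells in the B lineage until plasma cell differentiation, varied least at 5 weeks. It had 14.5, 18.1, 7.97 and 13.1 CPM in the controls, 10.9, 12.4, 13.9 and 23.5 CPM after 2 weeks, and 18.1, 21.3, 23.5 and 20.8 CPM after 5 weeks. The highest control and the lowest 5-week library had the same value. The coefficient of variation was 10.6% among 5-week libraries and 31.4% among controls. The 5-week mean was 20.9 ± 2.21 CPM and the control mean 13.4 ± 4.21 CPM (SD, n = 4 each), with a log2 difference of 0.65 ± 0.23 (SE, limma adjusted p = 0.543).

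At 5 against 0 weeks, then, all 8 members had a higher mean in 5-week lungs, and 0 of 8 passed over all genes. The median log2 difference of the members was 0.83, beside 0.02 over all genes tested, of which 55.0% were above 0. The 5-week libraries lay wholly above the controls for 4 members (Cd79a, Ighd, Cd22 and Fcer2a), as they did for 3.65% of all genes tested. At an unadjusted p under 0.05 in limma, 7 of 8 members stood higher, where 5.84% of all genes did, with Cr2 the exception. Members were chosen with earlier results of these libraries known, and these counts describe them.

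Library 5-week replicate 3 carried much of the size of these differences. Its level over the mean of the other 5-week libraries was 2.65-fold for Cd79b, 2.16-fold for Cd79a, 2.13-fold for Ms4a1 and 1.98-fold for Ighd, against 1.44-fold for Cd22 and 1.17-fold for Pax5. With that library left out, 5-week over control means came to 1.61 times for Cd79a, 1.41 times for Cd79b, 1.82 times for Fcer2a and 1.25 times for Cr2. The median log2 difference of the members was 0.57. Without that library 0 of 8 members passed in limma.

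At 2 weeks the members had no common direction. Mean levels at 2 weeks were higher than in controls for 5 members and lower for 3, with a median log2 difference of 0.17 beside 0.02 over all genes, of which 55.1% were above 0. Cd79a averaged 40.99 ± 15.5 CPM at 2 weeks and 34.7 ± 8.20 CPM in controls (SD, n = 4 each), a log2 difference of 0.20 ± 0.28 (SE, limma adjusted p = 0.815). The largest difference upward was that of Fcer2a, 0.28 ± 0.27 (limma adjusted p = 0.741), and the largest downward that of Cr2, -0.25 ± 0.29 (limma adjusted p = 0.784). Every member overlapped between these groups, where 3.37% of all genes lay wholly higher at 2 weeks. The share lying wholly lower was not counted. In limma 0 of 8 members had an unadjusted p under 0.05, beside 9.24% of all genes (5.72% on the higher side).

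The 2-week means joined 1 high library and 3 low ones. In 2-week replicate 4 the members stood between 1.79-fold (Ighd) and 2.73-fold (Ms4a1) over the mean of the other 2-week libraries. With that library left out, 2-week over control means came to 0.96 times for Cd79a, 0.985 times for Cd79b, 0.978 times for Fcer2a and 0.969 times for Ighd. The receptors Ms4a1 and Cd22 were then at 0.679 and 0.676 times the control mean, and Cr2 at 0.625 times. Direction turned with this library left out for Cd79a (log2 difference -0.031), Fcer2a (-0.018), Pax5 (-0.059) and Ighd (-0.020), and the median of the members was -0.045. None of the 8 had all 3 remaining 2-week libraries below all controls.

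**Figure D2:**
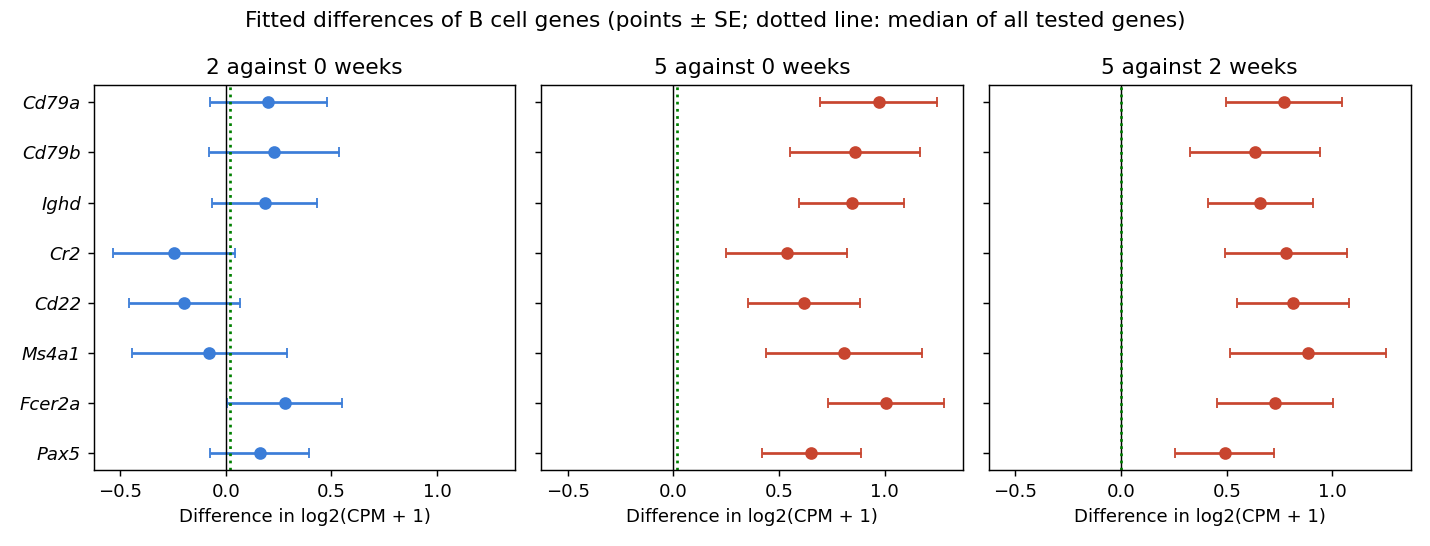
Fitted differences in log2(CPM + 1) (x axis) of the 8 B cell genes in 3 comparisons, as points ± SE, with a dotted line at the median of all 15562 tested genes. The points lie between 0.54 and 1.01 at 5 against 0 weeks, between -0.25 and 0.28 at 2 against 0 weeks and between 0.49 and 0.89 at 5 against 2 weeks.

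Between the treatment times all 8 members were higher on average at 5 weeks, with a median log2 difference of 0.75 beside 0.0007 over all genes, of which 50.2% were above 0. This comparison shares its 5-week libraries with the one above. Ms4a1 had the largest difference, 0.89 ± 0.37 (SE, limma adjusted p = 0.41), with 35.1 ± 15.5 CPM at 5 weeks and 19.4 ± 11.7 CPM at 2 weeks (SD, n = 4 each). Cd22 had the smallest p, with a log2 difference of 0.81 ± 0.26 (SE, limma adjusted p = 0.305), and Pax5 the smallest difference, 0.49 ± 0.23 (SE, limma adjusted p = 0.473). All 8 members overlapped between 5 and 2 weeks, where 2.38% of all genes did not overlap upward. At an unadjusted p under 0.05 in limma 6 of 8 members stood higher, beside 6.18% of all genes, and Cd79b and Pax5 did not.

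The size of this difference depended on single libraries. Without 5-week replicate 3 the median of the members was 0.52 and the difference of Cd79b 0.29, and without control replicate 2, 2-week replicate 3 and 5-week replicate 3 together these were 0.42 and 0.25, with 0 of 8 members passing in limma in either case. Without 2-week replicate 4 the median was 1.01. Every 5-week library was then above every remaining 2-week library for all 8 members, as for 10.5% of all genes. Cd22 (log2 difference 1.13, limma adjusted p = 0.0165) and Fcer2a (1.02, limma adjusted p = 0.0256) passed over all genes, 2 of 8 members where 2.48% of all genes passed, 1.84% upward. With libraries weighted by their agreement in limma, Cd79a, Cd22, Fcer2a and Cr2 passed (adjusted p between 0.0232 and 0.0452), beside 5.66% of all genes, 3.72% upward. The weight was 0.581 for 2-week replicate 4 and 0.205 for 5-week replicate 3, and ranged from 0.516 to 2.56 in the other 10 libraries.

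**Figure D3:**
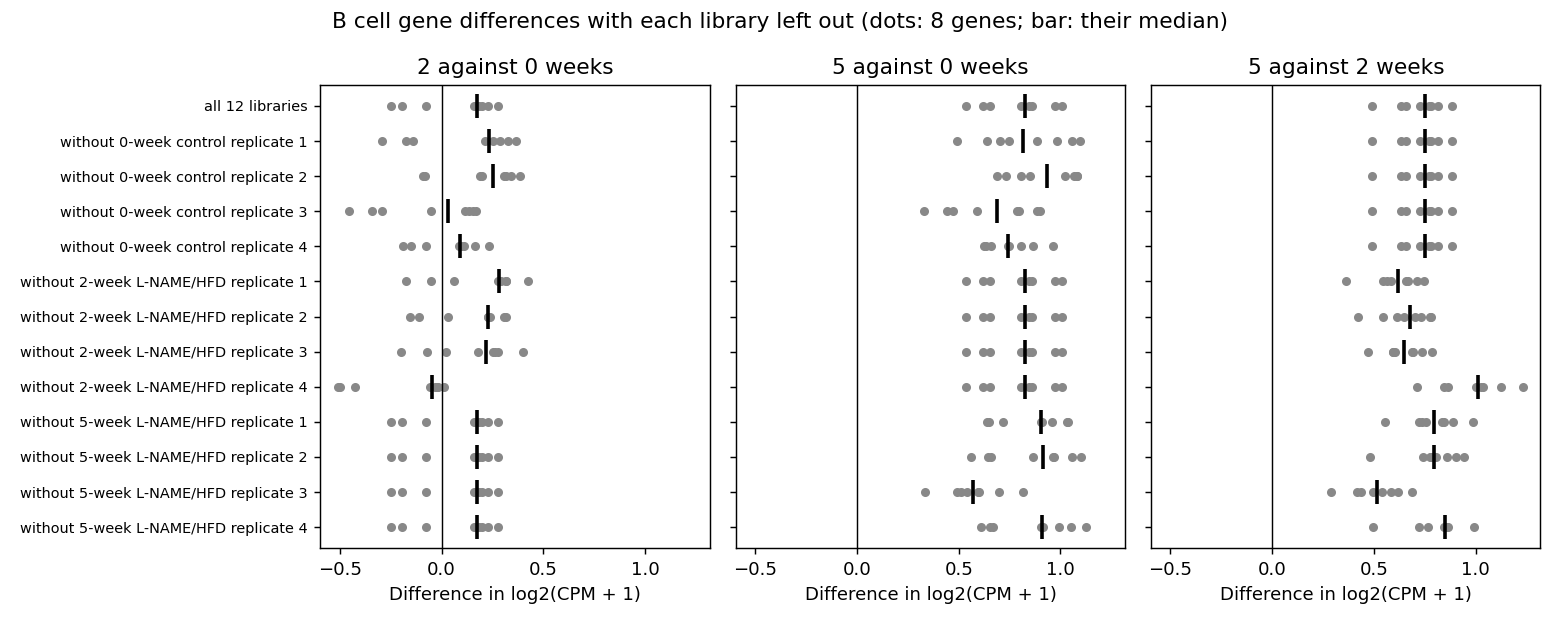
Differences in log2(CPM + 1) (x axis) of the 8 B cell genes (dots) and their median (bar) with all 12 libraries and with each library left out in turn (y axis), in 3 panels for the 3 comparisons. At 5 against 0 weeks every dot stays above 0, and the median is 0.57 without 5-week replicate 3; at 2 against 0 weeks the median is -0.045 without 2-week replicate 4.

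The members varied together across libraries. Pearson's r with Cd79a, on log2(CPM + 1) over 12 libraries, was 0.981 for Ighd, 0.97 for Cd79b, 0.965 for Fcer2a, 0.893 for Ms4a1, 0.877 for Cd22, 0.839 for Pax5 and 0.802 for Cr2. Spearman's rho lay between 0.727 (Cr2) and 0.972 (Ighd). Over these 7 relations the adjusted two-sided permutation p was at most 0.00151 for r and at most 0.00988 for rho (100000 permutations, raw p from 1e-05, the smallest they can give, to 0.00151 for r). Without 5-week replicate 3 and control replicate 4, the libraries farthest from the median of Cd79a, r lay between 0.869 and 0.97. That step kept 2-week replicate 4, which was among the 2 highest libraries for all 8 members. No r was computed without both 5-week replicate 3 and 2-week replicate 4, so how far r depends on that pair is not known. Centred on group means, r lay between 0.71 (Pax5) and 0.96, and rho missed the threshold for Ms4a1, Pax5 and Cr2 (adjusted permutation p of 0.0744, 0.0645 and 0.141). Groups of 4 libraries are too small for an r of their own.

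Proportions to Cd79a varied more for some members than for others. Fcer2a stood at 0.245 to 0.342 of the CPM of Cd79a and Ighd at 0.71 to 0.991. Cr2 ranged from 0.0839 to 0.249 and Pax5 from 0.195, in 5-week replicate 3, to 0.482, in control replicate 4. For Ms4a1 control replicates 2 and 4 had the highest ratios to Cd79a, at 0.787 and 0.681, while the other 10 libraries lay between 0.382 and 0.577.

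**Figure D4:**
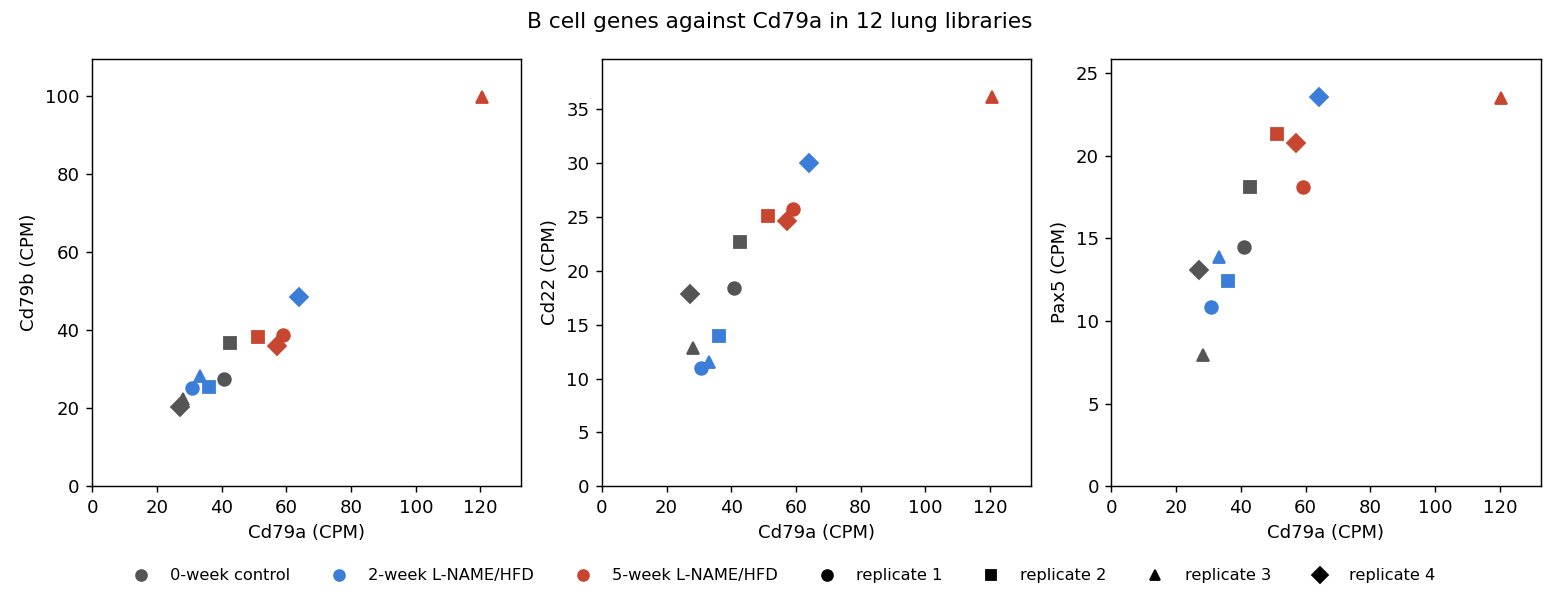
CPM of Cd79b, Cd22 and Pax5 (y axes) against Cd79a (x axes), 1 point per library, coloured by group and shaped by replicate number. Cd79b follows Cd79a up to 5-week replicate 3 (120.5 CPM Cd79a, 99.7 CPM Cd79b), where Pax5 is 23.5 CPM, as in 2-week replicate 4.

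Genes with the most similar profile were found by Pearson's r with the mean of the 8 scaled members over 12 libraries, among 15554 other tested genes. The 10 highest were Gpr18 (r = 0.983), Fcrla (0.982), Prkcb (0.981), H2-DMb2 (0.981), Fcmr (0.98), Ly6d (0.979), H2-Ob (0.978), Bcl11a (0.975), Ifi209 (0.973) and Rhoh (0.972). Fcrla encodes an intracellular Fc receptor-like protein of B cells, Fcmr the IgM Fc receptor, and H2-DMb2 and H2-Ob chains of the molecules that control peptide loading of MHC class II. In all, 123 genes had r above 0.9, and the profile was not particular to B cell genes. For genes of all leukocytes r was 0.967 (Coro1a) and 0.899 (Ptprc). It was 0.87 for Nkg7 of NK cells, 0.779 for Cd3e of T cells and 0.763 for S100a8 of neutrophils. It was 0.212 for Adipoq of adipocytes. Among the 10 highest, log2 differences at 5 against 0 weeks lay between 0.59 (Bcl11a) and 1.03 (Ly6d), with limma adjusted p between 0.513 and 0.554. Likeness is a description, and these genes share libraries, depth and tissue makeup with the members.

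Other genes of B cell biology were examined as lists, and none of their genes passed at 5 against 0 weeks. Over all genes tested, 55.0% were above 0 in this comparison and 8.63% had an unadjusted p under 0.05 in limma. These shares stand beside every list count below. The lists were chosen with earlier results of these libraries known, and their counts describe them. In antigen receptor signalling 16 of 16 tested genes were higher on average at 5 weeks, with a median log2 difference of 0.42 and 9 at an unadjusted p under 0.05. Lyn, a kinase that phosphorylates CD79A and CD22, had a difference of 0.22 ± 0.07 (SE, limma adjusted p = 0.518).

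The list of mature B cell surface and survival genes also leaned upward in full, with 16 of 16 higher on average, a median of 0.54 and 12 at an unadjusted p under 0.05. Ccr7, the chemokine receptor that guides lymphocytes to lymphoid tissue, had a difference of 0.81 ± 0.21 (SE, limma adjusted p = 0.393). H2-Oa, a chain of a class II modulator, had 0.79 ± 0.22 (SE, limma adjusted p = 0.471). Of 10 tested inhibitory receptors and phosphatases 8 were higher on average (median 0.44, 5 at an unadjusted p under 0.05), with Fcrl1, an Fc receptor-like protein of B cells, at 0.69 ± 0.20 and Cd72, a lectin-like inhibitory receptor, at 0.56 ± 0.18 (SE, limma adjusted p = 0.513 and 0.516).

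All 13 B lineage transcription factors were higher on average at 5 weeks, with a smaller median of 0.19 and 4 at an unadjusted p under 0.05. Pou2f2, which encodes the octamer-binding factor OCT2, had a difference of 0.69 ± 0.18 (SE, limma adjusted p = 0.461), and Spib, an ETS factor, 0.79 ± 0.30 (SE, limma adjusted p = 0.547). Many of these factors are also made by other cells of the lung.

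Lists of other B cell stages lay near the median of all genes. Plasma cell genes had a median of 0.08 at 5 against 0 weeks, with 5 of 6 tested genes higher on average and 0 at an unadjusted p under 0.05. Prdm1, the regulator of plasma cell fate, stood at 0.15 ± 0.13 and Jchain, the joining chain of polymeric IgM and IgA, at -0.72 ± 0.95 (SE, limma adjusted p = 0.74 and 0.831). The negative sign for Jchain rested on control replicate 2, at 169 CPM. The other controls had 2.30 to 4.70 CPM, below all 5-week libraries (4.84 to 9.10 CPM). Germinal centre genes had a median of -0.06, with 2 of 6 higher on average. Bcl6, the germinal centre repressor that other lung cells also make, was -0.19 ± 0.09, and S1pr2 was 0.09 ± 0.09 (SE, limma adjusted p = 0.575 and 0.785).

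Of 7 marginal zone and B-1 genes 5 were higher on average, with a median of 0.13. Dtx1, a Notch pathway regulator, had a difference of 0.37 ± 0.14 and Cd5 one of 0.40 ± 0.24 (SE, limma adjusted p = 0.543 and 0.662). Among precursor genes only Cd93 and Vpreb3 had a mean of at least 1 CPM. Cd93, which endothelial cells also make, had a difference of -0.32 ± 0.14 and Vpreb3 of 0.12 ± 0.16 (SE, limma adjusted p = 0.575 and 0.826). Of 7 tested factors that attract B cells or keep them alive 3 were higher on average at 5 weeks, with a median of -0.05. Ltb, which encodes lymphotoxin beta, had a difference of 0.78 ± 0.24 and Ccl21a, a chemokine ligand of CCR7, of 0.20 ± 0.10 (SE, limma adjusted p = 0.513 and 0.617).

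At 2 against 0 weeks the same lists had medians between -0.18 (germinal centre genes) and 0.14 (precursor genes), and 0 of their genes passed. At 5 against 2 weeks all 16 receptor signalling genes (median 0.56), all 16 mature surface genes (median 0.53) and all 10 inhibitory genes (median 0.53) were higher on average at 5 weeks. The other lists were mixed, with 10 of 13 transcription factors, 5 of 6 germinal centre genes and 4 of 6 plasma cell genes higher. So were 6 of 7 marginal zone and B-1 genes, 6 of 7 attraction and survival factors and 0 of 2 precursor genes (median -0.24). Over all genes tested 50.2% were above 0 there, and again 0 genes of these lists passed.

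Markers of other blood cells were higher on average in the same lungs, and none passed in limma. At 5 against 0 weeks 55.0% of all genes tested were above 0. All 6 pan-leukocyte genes were higher on average at 5 weeks, and their summed level was 642 to 973 CPM in 5-week libraries, against 387 to 655 CPM in controls. It was 720 CPM in 2-week replicate 4, the highest of the 2-week libraries, whose lowest was 354 CPM. Summed NK cell markers were 61.4 to 101 CPM at 5 weeks and 30.5 to 55.2 CPM in controls, all 8 higher on average. Summed T cell markers were 108 to 148 CPM at 5 weeks and 71.5 to 116 CPM in controls, with 11 of 13 higher on average. Summed neutrophil markers, 7 of 7 higher on average, were 131 to 371 CPM at 5 weeks and 69.3 to 205 CPM in controls. Their part in the differences of the members was not tested.

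The level of Cd79a was therefore also set against Ptprc, the CD45 gene of all leukocytes, a ratio chosen after the values were seen. It was 0.353, 0.392, 0.469 and 0.261 in controls, 0.534, 0.49, 0.432 and 0.472 after 2 weeks, and 0.462, 0.418, 0.679 and 0.348 after 5 weeks. The 5-week and control libraries overlapped on this ratio. The log2 ratio differed by 0.36 at 5 against 0 weeks, 0.41 at 2 against 0 weeks and -0.06 at 5 against 2 weeks, with exact two-sided permutation p of 0.286, 0.0571 and 0.8 (adjusted over the 3 comparisons, 0.429, 0.171 and 0.8). The smallest p that 4 against 4 libraries allow is 0.0286. A second ratio, the summed members over the summed pan-leukocyte genes, was described without a test. It was 0.254 to 0.334 in controls, 0.347 to 0.397 after 2 weeks and 0.300 to 0.485 after 5 weeks. On this ratio every 2-week library lay above every control, while 5-week and control libraries overlapped.

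Red cell markers were highest in the library with the most B cell RNA. Summed over 7 genes they were 1509 to 16212 CPM at 5 weeks and 1235 to 2604 CPM in controls, and the top value was that of 5-week replicate 3, where Hbb-bs, a beta-globin gene, stood at 7190 CPM. In 5-week replicate 2 Hbb-bs was 586 CPM, within the control range of 458 to 991 CPM, and Cd79a was 51.3 CPM, above all controls. In 5-week replicates 1 and 4 Hbb-bs was 1704 and 1568 CPM, above all controls, and Cd79a was 59.1 and 57.2 CPM. In 2-week replicate 4 Hbb-bs was 473 CPM and Cd79a 64.0 CPM. Over the 12 libraries r of Hbb-bs with the mean of the scaled members was 0.627. The part of blood in the differences of the members was not tested. Platelet markers summed to 36.6 to 77.9 CPM at 5 weeks and 19.7 to 43.6 CPM in controls, all 5 higher on average.

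Control replicate 2 stood apart in immunoglobulin and fat genes. Ighm, the heavy chain of IgM, was 111, 1049, 78.7 and 92.9 CPM in the controls, 80.1, 101, 94.6 and 187 CPM after 2 weeks, and 145, 157, 279 and 148 CPM after 5 weeks. The ratio of Ighm to Ighd was 34.6 in control replicate 2 and 2.75 to 3.82 in the other 11 libraries. In the same library Jchain was 169 CPM, against 2.30 to 4.70 CPM in the other controls, Cxcl13, the chemokine that draws B cells to follicles, was 35.5 CPM, against 0.944 to 3.21 CPM, and Adipoq, the adipocyte hormone adiponectin, was 157 CPM, against 1.93 to 7.24 CPM. It was also the highest control for Cd79a, Cd79b, Ms4a1, Cd22, Pax5 and Cr2. Without it the median log2 difference of the members at 5 against 0 weeks was 0.93, and 0 of 8 passed in limma.

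**Figure D5:**
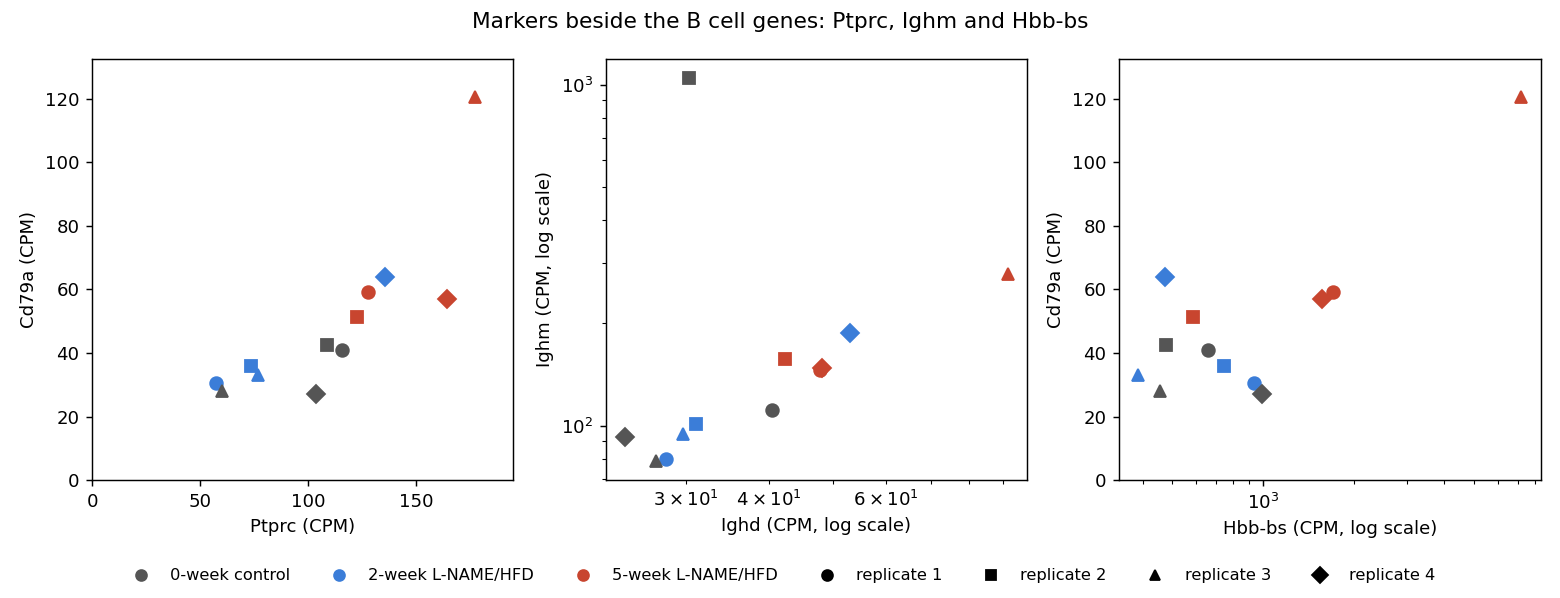
Cd79a against Ptprc (left, linear axes), Ighm against Ighd (middle, log axes) and Cd79a against Hbb-bs (right, log x axis), all in CPM, 1 point per library. Control replicate 2 lies far above the other libraries for Ighm (1049 CPM), and 5-week replicate 3 is highest for Cd79a (120.5 CPM), Ptprc (178 CPM) and Hbb-bs (7190 CPM).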

How the data were processed

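RNA of 12 flash-frozen whole lungs was profiled, 4 libraries in each of 3 groups. The authors deposited CPM values in 1 table with an offset of 0.0001 in every cell. Per the submitters' processing notes, TopHat2 and Partek were used with mm10; no source used here gives versions, annotation, filters or strandedness. Positions are printed as deposited (only 501 of 23073 matched starts equal GENCODE M21), with the stop minus 1 as the end. Between 87.2% and 88% of values came within 0.1 of whole reads, which did not suffice to recover counts, so no interval for counting error is given. Limma 3.58.1 in R 4.3.3 (trend, group means) was fitted to log2(CPM + 1), a scale that understates low genes, and was tested on simulated data. The simulation gave every gene the same dispersion and held no library that stood apart. It therefore cannot vouch for the fit to these libraries. Permutation tests used scipy 1.17.1 in Python 3.11.15, tables pandas 2.3.3, and figures matplotlib 3.10.9. The 8 members and all lists were chosen with earlier results of these data known. Named genes are the members, for each list of B cell biology the 2 genes with the smallest p at 5 against 0 weeks where none passed, and the 10 most similar profiles; per-library marker genes were chosen after their values were seen. For receptor signalling, 1 gene that this rule names is not reported here. No pair of libraries was identical (r across genes between 0.9012 and 0.9969). The alternatives were pseudocounts, filters, scalings, library weights, robust moderation, fits of only the groups compared, a minimum change and left-out libraries. The single-cell experiment of the series was not analysed here.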

Additional observations from a re-analysis of the deposited data

Results flagged for a closer look

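Single libraries stood far from the other 3 of their group in 11 of 24 pairs of a B cell gene and a group. Chance alone gives about 1 in 20 for independent groups, but the B cell genes vary together and all 11 pairs come from the same 2 libraries, so the count is not set against that rate. Of the further marker genes below, chosen after their values were seen, 9 pairs stood apart. In each, the gap to the nearest library, divided by the range of the group, exceeded Dixon's 95% critical value.

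In 5-week replicate 3, Cd79a (120.5 CPM, other 5-week libraries 51.3 to 59.1), Cd79b (99.7, others 36.1 to 38.7), Ms4a1 (58.3, others 26.2 to 29.1), Cd22 (36.1, others 24.6 to 25.7) and Ighd (91.4, others 42.2 to 48.1) stood apart, as did Ighm (279 CPM, others 145 to 157) and Hbb-bs (7190 CPM, others 586 to 1704). In 2-week replicate 4 the same held for Cd79a (64.0 CPM, other 2-week libraries 30.7 to 36.1), Cd79b (48.4, others 25.3 to 28.3), Ms4a1 (36.9, others 12.8 to 13.9), Cd22 (30.05, others 10.96 to 13.9), Cr2 (7.97, others 3.03 to 3.84) and Ighd (52.9, others 28.0 to 31.1), and for Jchain (10.9 CPM, others 1.79 to 3.27).

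In control replicate 2 no B cell gene stood apart by this measure, but Ighm (1049 CPM, other controls 78.7 to 111), Jchain (169, others 2.30 to 4.70), Cxcl13 (35.5, others 0.944 to 3.21), Adipoq (157, others 1.93 to 7.24) and Glycam1 (0.419, others at the floor of 0.0001) did. Jchain was also apart in 5-week replicate 1 (9.10 CPM, others 4.84 to 5.24).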

How the results depend on the processing

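At 5 against 0 weeks all 8 members kept a positive difference and 0 passed under each of the alternatives run; the largest range was that of Ms4a1 (0.53 to 1.08) and the lowest adjusted p was 0.144 (Fcer2a). Over all genes 0 passed there, or 1 without control replicate 1. At 2 against 0 weeks 0 members passed under any alternative. With library weights 18 genes passed at 2 against 0 weeks, 881 at 5 against 2 weeks (4 members) and 286 over the 3 groups, and Cd79a (-0.0016), Pax5 (-0.037) and Ighd (-0.010) turned direction at 2 weeks. Without control replicate 2, 2-week replicate 3 and 5-week replicate 3 together, Ms4a1 (0.30) and Cd22 (0.045) turned direction at 2 weeks. The correlation of Cr2 with Cd79a (r = 0.674, adjusted permutation p = 0.0539) then missed the threshold. Without 2-week replicate 4 and 5-week replicate 3 together, an alternative added after seeing the data, 20, 255 and 1 genes passed at 2 against 0 weeks, 5 against 2 weeks and over the 3 groups, 3 members passed at 5 against 2 weeks, and Cd79a (-0.031), Fcer2a (-0.018), Pax5 (-0.059) and Ighd (-0.020) turned direction at 2 weeks. With each library left out in turn, genes passing ranged from 0 to 1 at 5 against 0 weeks, 0 to 24 at 2 against 0 weeks (24 without 5-week replicate 3), 0 to 386 at 5 against 2 weeks and 0 to 132 over the 3 groups (both highest without 2-week replicate 4), and members passing at 5 against 2 weeks from 0 to 2. The differences at 2 weeks ranged then from -0.031 to 0.31 for Cd79a, -0.018 to 0.42 for Fcer2a, -0.059 to 0.31 for Pax5, -0.020 to 0.32 for Ighd and -0.42 to 0.20 for Ms4a1. The cause was not tested. With a mean of at least 10 CPM, Cr2 was not tested. No paired analysis was possible because the labels give each mouse its own number and the groups share none. Replicates are separate mice, and without counts the depth limits low genes such as Cr2 by an unknown amount.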
